A study of Homo sapiens with 12 samples.

Results

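The effect of adding filanesib to pomalidomide plus dexamethasone was measured in MM.1S cells, a glucocorticoid-sensitive line established from human multiple myeloma. The comparison used 6 of the 12 arrays of the series: 3 arrays of cells given filanesib, pomalidomide and dexamethasone (FPD) and 3 of cells given pomalidomide and dexamethasone (PD). Every row of the expression table with exactly 1 gene symbol was taken, 16098 of 53617 rows, which stood for 14884 genes. PD cells received 500 nM pomalidomide and 10 nM dexamethasone for 24 h. FPD cells received the same doses together with 1 nM filanesib for 24 h, so both groups carried pomalidomide and dexamethasone and differed by filanesib. The remaining arrays were 3 of vehicle-treated control cells and 3 of a group titled F. They entered FPD against PD through the estimate of each gene's spread alone. The F group received 1 nM filanesib according to its treatment label, which also lists 10 nM dexamethasone, whereas its title and the shared protocol give the letter F alone. The series set out to compare how filanesib enhances pomalidomide-type drugs given with dexamethasone, and the arrays served to examine the combination. The labels do not state whether arrays of the same group were separate cultures, and p-values therefore reflect array-to-array spread that may be technical. The arrays come from 1 cell line and 1 time point.

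Filanesib inhibits kinesin spindle protein (KIF11, also called Eg5), the motor that pushes the spindle poles apart at the start of mitosis. Cells in which it is blocked build a spindle with a single pole and are held in mitosis by the spindle checkpoint. Genes of mitosis are transcribed late in the cell cycle, and many carry in their promoters a CCAAT box, bound by NF-Y, and a cell cycle homology region, TTTGAA, through which MuvB complexes with MYBL2 or with E2F4 and DP proteins act. Pomalidomide binds cereblon and marks IKZF1 and IKZF3, transcription factors of the lymphoid lineage, for degradation, and dexamethasone acts through the glucocorticoid receptor.

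The promoter sequences of 7 chosen genes are shown because genes of mitosis were frequent among the smallest p-values. They made up 7 of the first 25 genes by p, and 112 of all 14884 genes tested. PARPBP passed the test. PRC1, KIF18A, GPSM2 and BUB1 are ranked genes of mitosis or spindle orientation that came close to it, CCNB2 encodes cyclin B2, and KIF11 encodes the protein that filanesib inhibits. Each sequence ends at the base before the RefSeq transcription start on the gene's own strand, 120 bases long, or 68 for PARPBP, where the neighbouring gene begins. Capitals mark TTTGAA or its reverse complement TTCAAA, and CCAAT or its reverse complement ATTGG. RefSeq lists 2 starts for PARPBP, and the more upstream was used. Sequences and positions are from RefSeq on GRCh38.p14.
PARPBP, chr12:102120115-102120182, plus strand: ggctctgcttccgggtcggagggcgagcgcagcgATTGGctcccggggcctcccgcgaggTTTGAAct
PRC1, chr15:90994536-90994655, minus strand: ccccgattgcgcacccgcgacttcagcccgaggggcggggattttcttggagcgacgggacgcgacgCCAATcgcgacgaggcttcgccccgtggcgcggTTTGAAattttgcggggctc
KIF18A, chr11:28108157-28108276, minus strand: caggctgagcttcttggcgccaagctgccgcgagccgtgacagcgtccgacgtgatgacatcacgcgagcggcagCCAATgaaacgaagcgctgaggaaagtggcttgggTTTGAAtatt
GPSM2, chr1:108876865-108876984, plus strand: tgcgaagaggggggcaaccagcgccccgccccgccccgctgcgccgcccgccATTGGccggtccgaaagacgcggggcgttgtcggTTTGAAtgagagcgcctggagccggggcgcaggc
BUB1, chr2:110678064-110678183, minus strand: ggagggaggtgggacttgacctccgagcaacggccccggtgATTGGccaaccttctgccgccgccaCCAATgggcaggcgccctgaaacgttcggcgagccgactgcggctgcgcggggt
CCNB2, chr15:59105026-59105145, plus strand: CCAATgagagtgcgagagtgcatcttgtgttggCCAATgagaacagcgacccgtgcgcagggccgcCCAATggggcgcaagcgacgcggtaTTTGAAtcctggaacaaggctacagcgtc
KIF11, chr10:92593010-92593129, plus strand: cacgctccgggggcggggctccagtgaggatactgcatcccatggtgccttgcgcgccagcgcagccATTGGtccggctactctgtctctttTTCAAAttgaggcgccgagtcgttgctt

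The TTTGAA match began at base -8 from the start in PARPBP, at -10 in KIF18A, at -20 in PRC1, at -29 in CCNB2 and at -34 in GPSM2. In KIF11 the match was on the other strand, at base -28. BUB1 held no TTTGAA in its window, and its shown stretch held 2 CCAAT boxes. The genes shown were a choice, and their share with TTTGAA does not stand for all ranked genes. Ranked genes not shown include TMEM237, ZNF491 and TPH1, whose windows held no TTTGAA, and ARHGAP11B, whose window held it. A match says where these letters lie and does not show that a factor binds there.

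A pair of the called loci were microRNA genes, and their mature sequences are given to identify them, with the seed (bases 2 to 8) in capitals. The array rows measure RNA of the locus and not the mature strand. The 2 seeds differ. MIR4771-1 and a second locus, MIR4771-2 at chr2:111771070-111771090 on the minus strand, encode the same mature sequence.
hsa-miR-4521, chr17:8186948-8186969, plus strand: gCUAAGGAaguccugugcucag
hsa-miR-4771, chr2:87194830-87194850, plus strand: aGCAGACUugaccuacaauua

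The deposited values are log2 expression values that ran from 1.61 to 13.75, with array medians between 4.23 and 4.27. Over all 53617 rows, with or without a symbol, the correlation was 0.988 to 0.989 between PD arrays and 0.991 to 0.992 between FPD arrays. Between arrays of the 2 groups it was 0.986 to 0.990. For a gene of median precision the 95% interval of the difference between FPD and PD reached 0.233 log2 units to either side. That interval is not adjusted for the number of genes, and with 3 arrays a group larger differences were needed to pass the test. The smallest change among the genes that passed was 0.66, for PARPBP, while ARHGAP11B did not pass at 0.67. The plasma cell surface marker SDC1 read 10.15 to 10.17 in PD and 10.19 to 10.24 in FPD, and the 10 measured plasma cell markers had a median level of 10.25. The 8 T and NK cell markers had a median level of 5.06 and the 8 myeloid markers one of 4.18. Both lay below 5.39, the median level of the genes tested, which exceeds the array medians over all rows. Levels of different rows are not strictly comparable, since each probe set has its own response.

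Adding filanesib to pomalidomide plus dexamethasone changed few genes past the threshold of an adjusted p under 0.05 (limma, Benjamini-Hochberg over 14884 genes). The genes that rose were 5 (0.0336% of those tested): EBLN2, LOC100288637, MIR4521, PARPBP and MIR4771-1. No gene fell (0%). By comparison, pomalidomide plus dexamethasone against control raised 1018 genes (6.84%) and lowered 1284 (8.63%). At an unadjusted p under 0.05, 745 genes (5.01%) were higher in FPD and 538 (3.61%) lower, a total of 1283 where 744.2 would be expected with no differences. The changes were small. A log2 change of at least 0.5 was measured for 63 genes upward and 27 downward, and 42 of these lay below the median expression level. Changes of at least 1 were 3 upward (MIR4441, MIR644A and EBLN2) and 1 downward (SERF2), named here after their values were seen, and of these EBLN2 alone passed the test.

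EBLN2, a protein-coding gene that descends from an ancient bornavirus nucleoprotein insertion, had the largest change of the 5. Its log2 level was 4.83, 4.62 and 4.55 in PD and 5.81, 5.53 and 5.84 in FPD. All 3 FPD arrays lay above all 3 PD arrays, and the rise was 1.06 log2 units (SE 0.153, fc 2.09, adjusted p = 0.022). Its PD levels were not far above the array medians, and below 5.39, the median level of the genes tested. In F against control, whose group means come from the other arrays, EBLN2 differed by 0.56, which did not pass (limma, adjusted p = 0.553).

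PARPBP encodes a PCNA-binding partner that restrains homologous recombination. Its level was 6.70, 6.59 and 6.52 in PD and 7.21, 7.32 and 7.28 in FPD. The groups did not overlap, and the rise was 0.66 (SE 0.103, fc 1.58, adjusted p = 0.0325). F exceeded control by 0.48 without passing (adjusted p = 0.287), and the control arrays, at 6.74 to 7.07, lay between PD and FPD.

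LOC100288637, a transcribed pseudogene, read 7.02, 6.85 and 6.72 in PD and 7.59, 7.62 and 7.53 in FPD. The FPD arrays lay close together and above every PD array, a rise of 0.72 (SE 0.104, fc 1.65, adjusted p = 0.022). Its other row on the array differed by 0.84 in the same direction.

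The MIR4521 locus read 7.80, 7.78 and 7.96 in PD and 8.77, 8.59 and 8.63 in FPD, a rise of 0.82 (SE 0.120, fc 1.76, adjusted p = 0.022) without overlap. Control arrays read 8.64 to 9.08, so the FPD arrays lay above PD and near control. The PD arrays are shared between FPD against PD and PD against control, in which MIR4521 differed by -1.04. A second row of the locus, at a low level, had a change of 0.67 in FPD against PD.

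The MIR4771-1 locus read 3.42, 3.66 and 3.57 in PD and 4.50, 4.08 and 4.18 in FPD, a rise of 0.71 (SE 0.113, fc 1.63, adjusted p = 0.0363) without overlap. It was also the gene that passed in F against control, where it rose by 0.87 (adjusted p = 0.0147). Both rows of this locus hold identical values, and its levels in PD lie below the array medians. The call was lost when the 6 PD and FPD arrays were fitted alone (adjusted p = 0.126). Leaving out single arrays moved the number of genes that rose: it was 11 without PD array 1, 3 without FPD array 2, and 0 without PD array 2, PD array 3, FPD array 1 or FPD array 3.

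**Figure D1:**
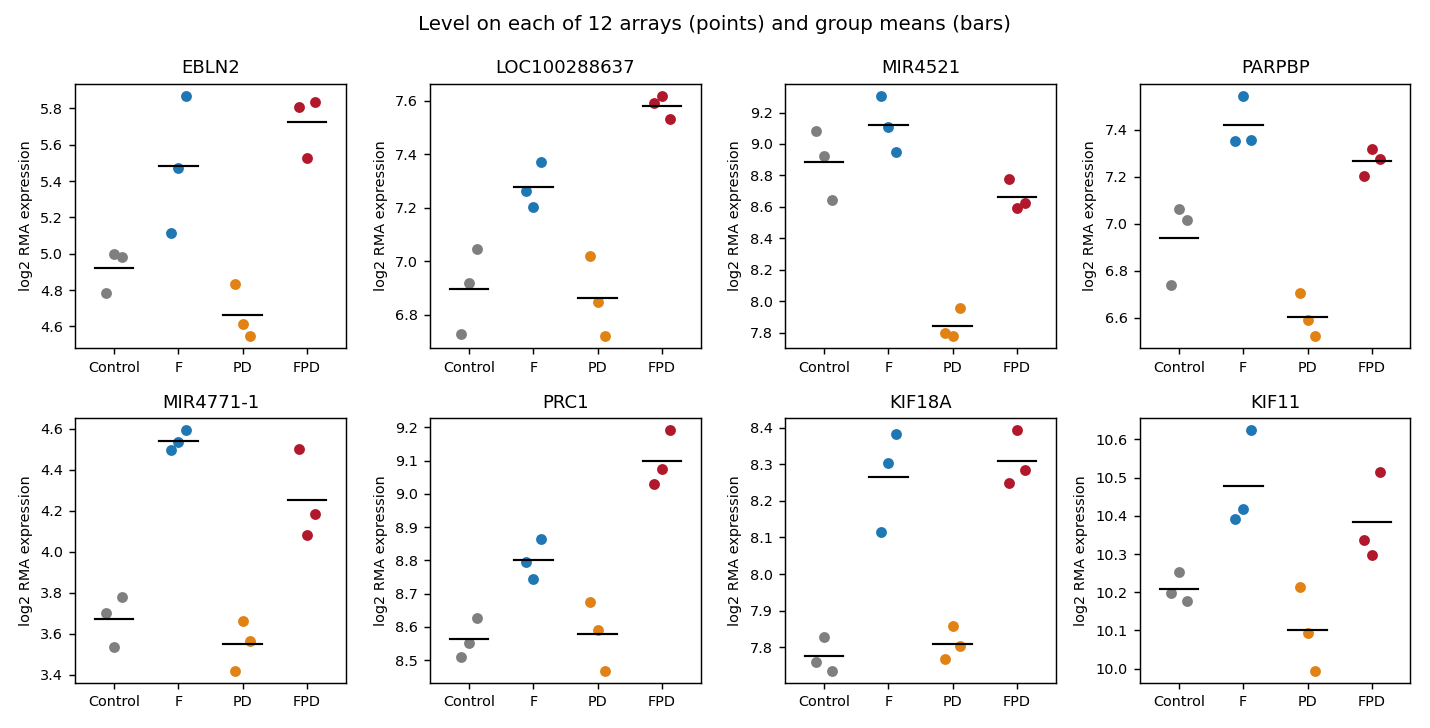
Level of 8 genes on each of the 12 arrays (log2 expression after RMA, 1 panel per gene with its own axis range). Points are arrays and bars are means of 3 arrays of control, F, PD and FPD. The 5 genes that rose (EBLN2, LOC100288637, MIR4521, PARPBP and MIR4771-1) and PRC1, KIF18A and KIF11 have every FPD point above every PD point.

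Genes of mitosis had small positive differences as a group, and none of them passed the test singly. Of 142 genes in 5 lists (kinesins, cyclins and kinases, kinetochore, spindle and cytokinesis, and chromosome segregation), 112 were measured. A total of 110 of the 112 had a positive change, against 51.8% of all genes tested, and 2 a negative one (48.2% of all genes). All 3 FPD arrays lay above all 3 PD arrays for 88, against 8.1% of all genes, and below them for 0, against 6.35%. An unadjusted p under 0.05 was reached by 80 upward, against 5.01% of all genes, and by 0 downward (3.61% of all genes). The median change was 0.30 (fc 1.23) with an interquartile range of 0.21 to 0.39, beside a median of 0.0057 over all genes. In bulk RNA, a larger share of cells in mitosis and more RNA of these genes per cell cannot be told apart. Most mitosis genes were well expressed, and level itself went with the change: among other genes with a mean level of 7.13 or more (3623 genes) the median change was 0.054 and 68.0% were positive, while the 98 mitosis genes in that range had a median of 0.31. The part of expression level in the result was not tested.

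**Figure D2:**
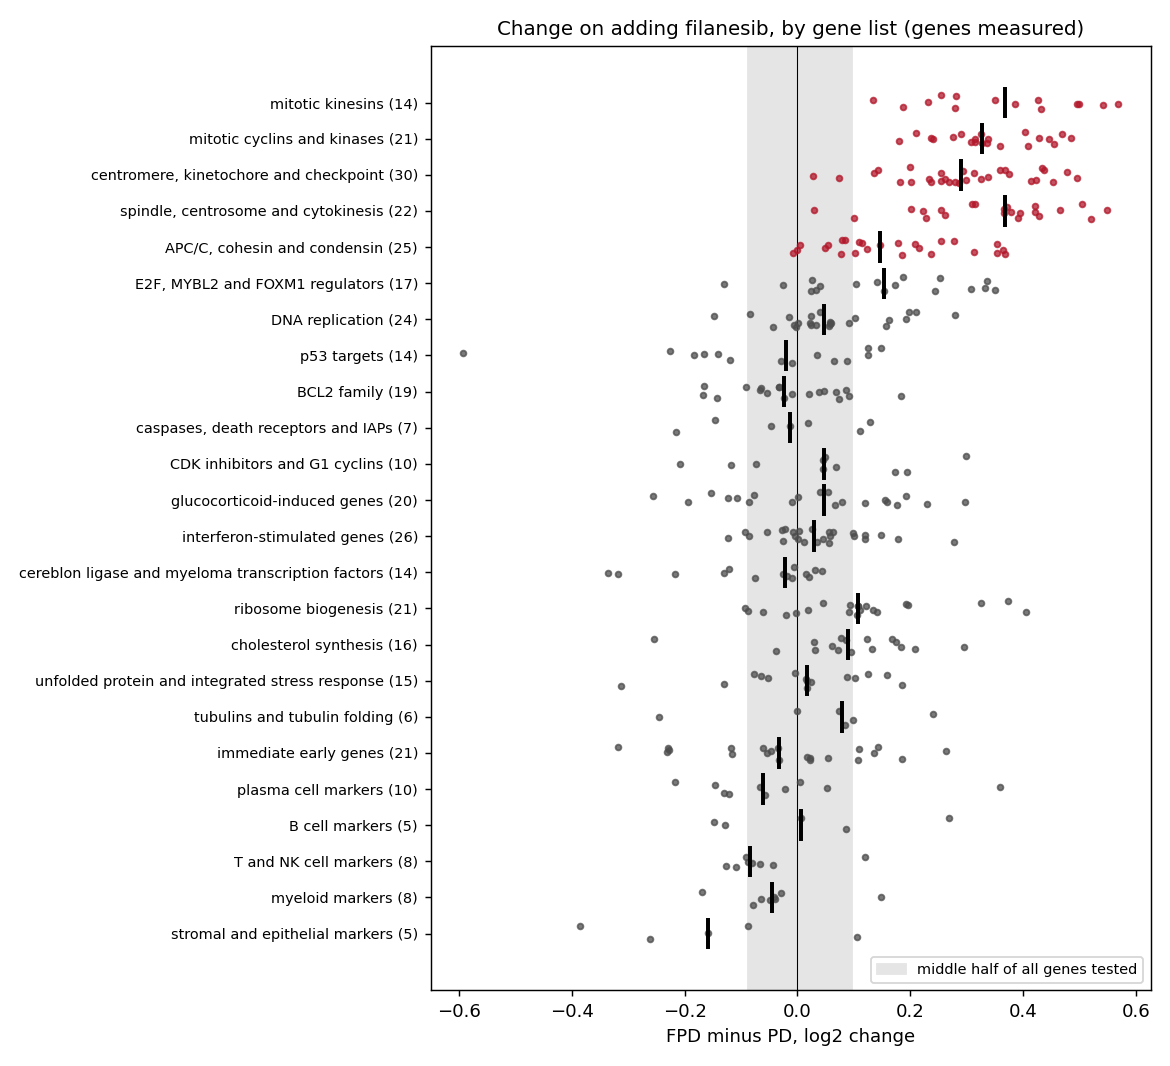
Change on adding filanesib to pomalidomide plus dexamethasone (FPD minus PD, log2, horizontal axis) for each measured member of 24 gene lists, with the number measured in brackets. Points are genes, red for the 5 mitosis lists, black bars are list medians, and the grey band spans the interquartile range of all 14884 genes (-0.09 to 0.10). All 5 mitosis medians lie right of the band, between 0.15 and 0.37. The E2F, MYBL2 and FOXM1 regulators and ribosome biogenesis, at 0.15 and 0.11, lie just past its right edge. The stromal and epithelial markers, at -0.16, lie past its left edge.

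The mitotic kinesins, motors of the spindle and chromosomes, had a median change of 0.37. All 14 measured members had a positive change and non-overlapping groups, and 12 reached an unadjusted p under 0.05. KIF11, the target of filanesib, read 10.21, 10.09 and 9.99 in PD and 10.34, 10.30 and 10.51 in FPD. Its FPD arrays lay above its PD arrays by 0.28 on average (SE 0.0979, adjusted p = 0.423), which did not pass. KIF11 is blocked by the drug as a protein, so its RNA does not check the treatment. The largest changes were those of KIF14, which acts in cytokinesis, at 0.57 (SE 0.115, adjusted p = 0.0839), and KIF20B, at 0.54 (SE 0.107, adjusted p = 0.0766). KIF18A, which damps the movement of chromosomes at the metaphase plate, read 7.77, 7.86 and 7.80 in PD and 8.25, 8.39 and 8.28 in FPD. That is a difference of 0.50 (SE 0.0917, fc 1.41, adjusted p = 0.071) with groups apart and no pass. The smallest changes were those of KIF20A (0.19) and KIF2A (0.13).

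Cyclins and kinases of mitosis had a median change of 0.33. All 21 members had positive changes without overlap, and 19 reached an unadjusted p under 0.05. CCNB2 (cyclin B2) read 8.40, 8.51 and 8.53 in PD and 8.85, 8.88 and 8.99 in FPD, a difference of 0.43 (SE 0.0846, fc 1.35, adjusted p = 0.0766). CCNB1 (cyclin B1) differed by 0.45 (adjusted p = 0.206) and its kinase partner CDK1 by 0.24 (adjusted p = 0.621). BUB1, a checkpoint kinase at the kinetochore, read 10.06, 9.93 and 9.87 in PD and 10.37, 10.44 and 10.42 in FPD, a difference of 0.46 (SE 0.0869, fc 1.37, adjusted p = 0.0766). NEK2, a centrosome kinase, had the largest change of the list at 0.49 (adjusted p = 0.0766), followed by the phosphatase CDC25B at 0.47 (adjusted p = 0.137). AURKA differed by 0.34 (adjusted p = 0.371) and PLK1 by 0.32 (adjusted p = 0.426). MELK (0.21) and WEE1 (0.18), which holds CDK1 inactive before mitosis, were at the low end.

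Centromere, kinetochore and spindle checkpoint genes had a median change of 0.29. All 30 members were positive, 25 without overlap between the groups, and 24 reached an unadjusted p under 0.05. SPDL1, which brings dynein to kinetochores, had a mean of 7.25 ± 0.0684 in PD and 7.74 ± 0.144 in FPD (SD, n = 3), a difference of 0.50 (SE 0.113, limma adjusted p = 0.15). CENPK, a subunit of the constitutive centromere network, differed by 0.48 (adjusted p = 0.173). The checkpoint protein gene MAD2L1 differed by 0.24 (adjusted p = 0.528). BUB3 (0.07) and CENPH (0.03) were lowest in the list.

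Spindle, centrosome and cytokinesis genes had a median change of 0.37. All 22 were positive, and 18 had groups without overlap and 18 an unadjusted p under 0.05. PRC1, which bundles the microtubules of the central spindle, was the mitosis gene with the smallest p: it read 8.67, 8.59 and 8.47 in PD and 9.03, 9.08 and 9.19 in FPD. The difference was 0.52 (SE 0.0897, fc 1.43, adjusted p = 0.0566). TROAP, a spindle-associated protein, read 7.98, 7.81 and 8.09 in PD and 8.57, 8.52 and 8.44 in FPD, a difference of 0.55 (SE 0.103, fc 1.46, adjusted p = 0.0766). HMMR, a spindle assembly factor, differed by 0.51 (SE 0.120, adjusted p = 0.162). NUSAP1 (0.10) and NUMA1 (0.03) were at the low end.

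The anaphase-promoting complex, cohesin and condensin list had the smallest median of the 5, 0.15. Of its 25 members, 23 were positive, 10 had groups without overlap and 7 reached an unadjusted p under 0.05. CDC20, the mitotic activator of the anaphase-promoting complex, differed by 0.37 (adjusted p = 0.185), the separase gene ESPL1 by 0.36 (adjusted p = 0.423) and the topoisomerase TOP2A by 0.35 (adjusted p = 0.153). The core subunit CDC16 (-0.00075) and the ubiquitin-conjugating enzyme UBE2S (-0.0071) were the 2 members of all the mitosis lists without a positive change.

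The mean of each list on each array shows the same separation. Relative to the control mean, the mean of the 112 mitosis genes was -0.15 to -0.10 on the PD arrays and 0.15 to 0.20 on the FPD arrays. It was 0.14 to 0.25 on the F arrays and -0.03 to 0.05 on the control arrays. For this mean FPD arrays thus lay in the range of the F arrays and above control, whereas PD arrays lay below control. For the kinesins PD arrays ranged from -0.12 to 0.02 and FPD arrays from 0.25 to 0.38. Kinetochore genes lay at -0.24 to -0.23 in PD and 0.01 to 0.09 in FPD, with F arrays at 0.11 to 0.29 and control arrays at -0.05 to 0.09. In this list FPD overlapped control and lay below F.

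**Figure D3:**
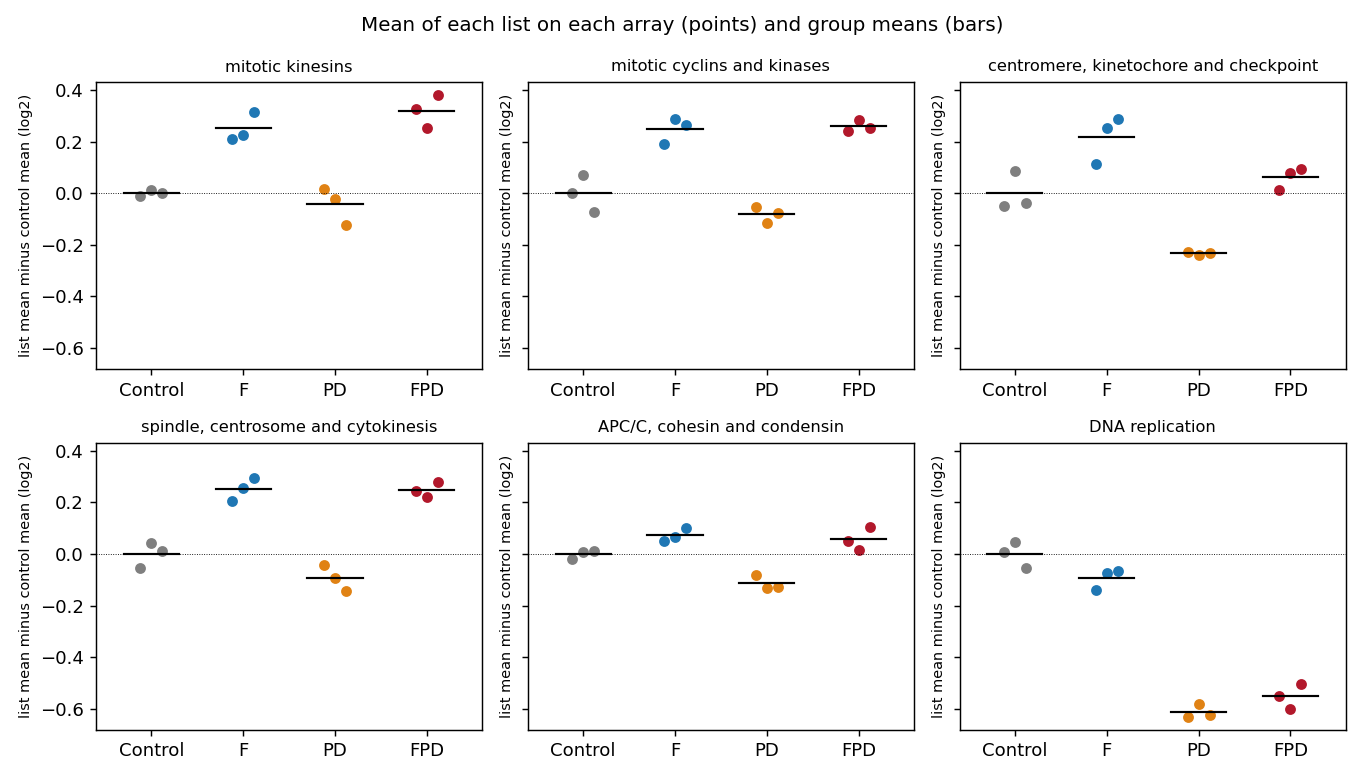
Mean of 6 gene lists on each array, as the difference from the mean of the control arrays (log2). Points are the 12 arrays and bars are group means. In the 5 mitosis lists every FPD point lies above every PD point. In the DNA replication list FPD points (-0.60 to -0.50) and PD points (-0.63 to -0.58) overlap and lie below control and F.

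Among 17 measured regulators of the E2F, MYBL2 and FOXM1 programmes, the median change was 0.15 and 15 were positive (51.8% of all genes). An unadjusted p under 0.05 upward was reached by 6, against 5.01% of all genes. The largest were E2F2 at 0.35 (adjusted p = 0.272) and FOXM1, an activator of late cell cycle genes, at 0.34 (SE 0.0868, adjusted p = 0.21). FOXM1 read 8.90 ± 0.0368 in PD and 9.24 ± 0.0661 in FPD (SD, n = 3, limma). The lowest were RBBP4 (-0.02) and LIN37 (-0.13). Of 45 DNA replication genes listed, 24 were measured, with a median change of 0.048. Of these, 18 were positive, against 51.8% of all genes, and 1 reached an unadjusted p under 0.05. GINS1, a subunit of the replicative helicase, had the largest change at 0.28 (adjusted p = 0.375), and UNG (-0.15) the lowest. The median of this list in PD against control, which shares the PD arrays, was -0.63, and the FPD arrays lay close to the PD arrays in the list mean. Of 16 CDK inhibitors and G1 cyclins listed, 10 were measured, with a median of 0.048. CCND2 was highest at 0.30 (adjusted p = 0.511) and CCND1 lowest at -0.21.

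A further 6 ranked genes lie outside these lists. GPSM2, which orients the spindle at the cell cortex, read 7.29, 7.17 and 6.92 in PD and 7.69, 7.59 and 7.84 in FPD, a difference of 0.58 (SE 0.108, fc 1.49, adjusted p = 0.0766). REEP4, which clears membrane from mitotic chromosomes, differed by 0.44 (SE 0.0857, adjusted p = 0.0766). TMEM237, a protein of the ciliary transition zone, differed by 0.54 (SE 0.0961, adjusted p = 0.0566), and ARHGAP11B, a partial copy of ARHGAP11A with which it may share signal, by 0.67 (SE 0.129, adjusted p = 0.0766). The remaining ranked genes, the zinc finger gene ZNF491 at 0.63 (adjusted p = 0.0566) and TPH1, a tryptophan hydroxylase, at 0.45 (adjusted p = 0.0766), both had levels at or below 4.83 on all PD and FPD arrays. Each of these 6 genes had FPD arrays above PD arrays without overlap. Of the 100 genes with the smallest p-values, 81 were higher in FPD, against 51.8% of all genes. The mitosis lists held 27 of the 100, and 112 of all 14884 genes tested.

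Among genes lower in FPD none passed. GCSAM, a signalling adaptor of germinal centre B cells, read 7.49, 7.16 and 7.49 in PD and 6.65, 6.90 and 6.73 in FPD, a difference of -0.62 (SE 0.109, PD over FPD 1.54, adjusted p = 0.0566). Control arrays read 6.73 to 6.91, so the PD arrays stood highest. PLK2, a polo-like kinase of the G1 phase and a p53 target, read 5.18, 5.57 and 5.30 in PD and 4.69, 4.70 and 4.87 in FPD, a difference of -0.59 (SE 0.106, PD over FPD 1.51, adjusted p = 0.0566). KRT37, a hair keratin, differed by -0.73 (SE 0.149, adjusted p = 0.0839). In all 3 genes no FPD array reached the lowest PD array. The other 9 ranked genes (KLF14, ENAM, CAV3, GFRA1, CABYR, UBQLN2, EMILIN2, ASB13 and PNOC) differed by -0.48 to -0.36, with adjusted p of 0.15 to 0.23. None of these 9 is in any of the 24 lists. SERF2 had the largest negative change, -1.01, but its PD arrays spread from 7.23 to 9.52 while its FPD arrays read 7.20 to 7.65 (adjusted p = 0.446).

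The measured genes of cell death had list medians near 0, and much of some lists was not measured. The 19 measured BCL2 family members had a median change of -0.024, with 8 positive (51.8% of all genes). None of the 19 reached an unadjusted p under 0.05 in either direction. The death-promoting members BCL2L11 (BIM), BMF and BAX differed by 0.18, 0.09 and -0.0098, and the survival members MCL1 and BCL2 by 0.04 and 0.02 (adjusted p of 0.669 to 0.985 for the 5). A second, weaker row of BMF had a change of -0.44. Of 26 caspase, death receptor and IAP genes listed, 7 were measured, with a median of -0.013, from CFLAR at 0.13 to FADD at -0.21. Of 27 p53 targets listed, 14 were measured and 6 of these were positive (51.8% of all genes), with TP53I3 highest at 0.15 and PLK2 lowest. An unadjusted p under 0.05 downward was reached by 2, against 3.61% of all genes. CDKN1A was not analysed here.

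Of genes tied to the action of pomalidomide, CRBN, IKZF1, IKZF3, IRF4 and MYC did not pass the test. Pomalidomide marks IKZF1 and IKZF3 for degradation as proteins, which their RNA does not measure. CRBN, which encodes cereblon, read 8.09 to 8.23 in PD and 8.06 to 8.25 in FPD, a difference of -0.0097 (SE 0.0938, adjusted p = 0.987). IKZF1 differed by 0.03 (adjusted p = 0.949) and IKZF3 by -0.34 (SE 0.199, adjusted p = 0.669), with overlapping arrays. IRF4, a survival factor of myeloma cells, differed by -0.12 (adjusted p = 0.732), beside -1.23 in PD against control. MYC, controlled by IRF4 in myeloma, read 10.06, 10.17 and 10.18 in PD and 9.89, 9.74 and 9.82 in FPD, a difference of -0.32 (SE 0.0860, adjusted p = 0.251). The groups did not overlap, and the difference in PD against control was -0.52. Over the 14 genes of the cereblon ligase and myeloma transcription factor list, 4 were positive (51.8% of all genes) and the median was -0.022.

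Glucocorticoid-induced genes differed by small amounts between FPD and PD beside their differences between PD and control. DDIT4 read 10.44 to 10.46 in PD and 10.59 to 10.62 in FPD, a difference of 0.16 (SE 0.0872, adjusted p = 0.644) beside 4.46 in PD against control. FKBP5 differed by 0.19 (adjusted p = 0.698), beside 1.49. The 20 measured genes of this list had a median change of 0.047 in FPD against PD. In F against control DDIT4 differed by -0.03, FKBP5 by 0.18 and the list by a median of -0.029, values to be read with the dexamethasone that the treatment label gives for the F group. The library labels of F are used throughout as given. Interferon-stimulated genes, raised by pomalidomide-type drugs, had a median of 0.030 over 26 genes, from CXCL10 at 0.28 to SAMD9 at -0.12, with 0 at an unadjusted p under 0.05.

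Ribosome biogenesis genes had a median change of 0.11. Of 21 measured, 16 were positive (51.8% of all genes) and 3 reached an unadjusted p under 0.05 upward (5.01% of all genes). RRN3, an initiation factor of RNA polymerase I, was highest at 0.41 (adjusted p = 0.292), then LYAR at 0.37 (adjusted p = 0.361), while GAR1 and NHP2 were both at -0.09. Cholesterol synthesis genes had a median of 0.091, with 14 of 16 positive, and ranged from HSD17B7 at 0.30 to MSMO1 at -0.25. These 2 lists lay at -0.68 and -0.31 in the median of PD against control. Their median levels were 8.44 and 7.44. Among genes outside the mitosis lists with a mean level of 7.13 or more, 68.0% were positive. The part of expression level in these 2 lists was not tested. The lists for the unfolded protein response with the integrated stress response (median 0.017 over 15) and immediate early genes (-0.033 over 21) lay near 0. Of 26 tubulins and folding factors listed, 6 were measured, with a median of 0.080. Plasma cell markers had a median of -0.061 over 10, from CD38 at 0.36 (adjusted p = 0.265) to POU2AF1 at -0.22, and B cell markers one of 0.006 over 5. T and NK cell, myeloid and stromal or epithelial markers had medians of -0.084, -0.045 and -0.16, with 1 positive member each, over 8, 8 and 5 genes. PD array 3 stood apart in the stromal and epithelial list: relative to control its mean was 0.26, beside -0.04 and -0.05 on the other PD arrays and -0.10 on each FPD array.

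Filanesib without pomalidomide was compared on the control and F arrays, which enter FPD against PD through the estimate of spread alone. By its treatment label F also carried dexamethasone and control did not, so this comparison and those built on it may include an effect of dexamethasone. Relative to the control mean, the mean of the 20 glucocorticoid-induced genes was -0.05 to 0.05 on the F arrays. It was -0.08 to 0.11 on the control arrays and 0.55 to 0.63 on the PD arrays, whose label gives the same 10 nM dexamethasone. Whether F cells received dexamethasone was not tested. In F against control 1 gene rose, MIR4771-1 (0.00672% of those tested), and 0 fell, with 895 genes at an unadjusted p under 0.05. No gene passed without control array 1, control array 2 or any of the 3 F arrays, and 2 passed without control array 3. The median of the 112 mitosis genes was 0.20, and 95 were positive, against 48.3% of all genes. For 46 of them all F arrays lay above all control arrays, as they did for 4.84% of all genes, while F arrays lay below control arrays for 5.15% of all genes. By list it was 0.27 for kinesins, 0.23 for cyclins and kinases, 0.24 for kinetochore genes, 0.24 for spindle genes and 0.08 for chromosome segregation genes, the same low place for the last list as in FPD against PD. DNA replication genes had a median of -0.11.

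The 50 genes with the highest moderated t in F against control were then read in FPD against PD. Their median change was 0.44 in F against control and 0.36 in FPD against PD, where 46 of 50 were positive (51.8% of all genes) and 39 had FPD arrays all above PD arrays (8.1% of all genes). They included 4 of the 5 genes that rose, and 21 of the mitosis genes. The 29 outside the mitosis lists had a median of 0.30, with 25 positive. The 50 lowest genes of F against control had a median of -0.41 there and -0.0033 in FPD against PD, with 24 positive and 26 negative. Of these, 8 had all FPD arrays below all PD arrays (6.35% of all genes) and 0 above, and 8 reached an unadjusted p under 0.05 downward (3.61% of all genes) and 0 upward. Across all 14884 genes the changes in the 2 comparisons correlated with r = 0.14 (Spearman 0.097) and had the same sign in 52.7%. Across the 112 mitosis genes r was 0.58 (Spearman 0.59), with the same sign in 83.0%. These correlations are across genes, which are not independent, and describe these arrays.

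**Figure D4:**
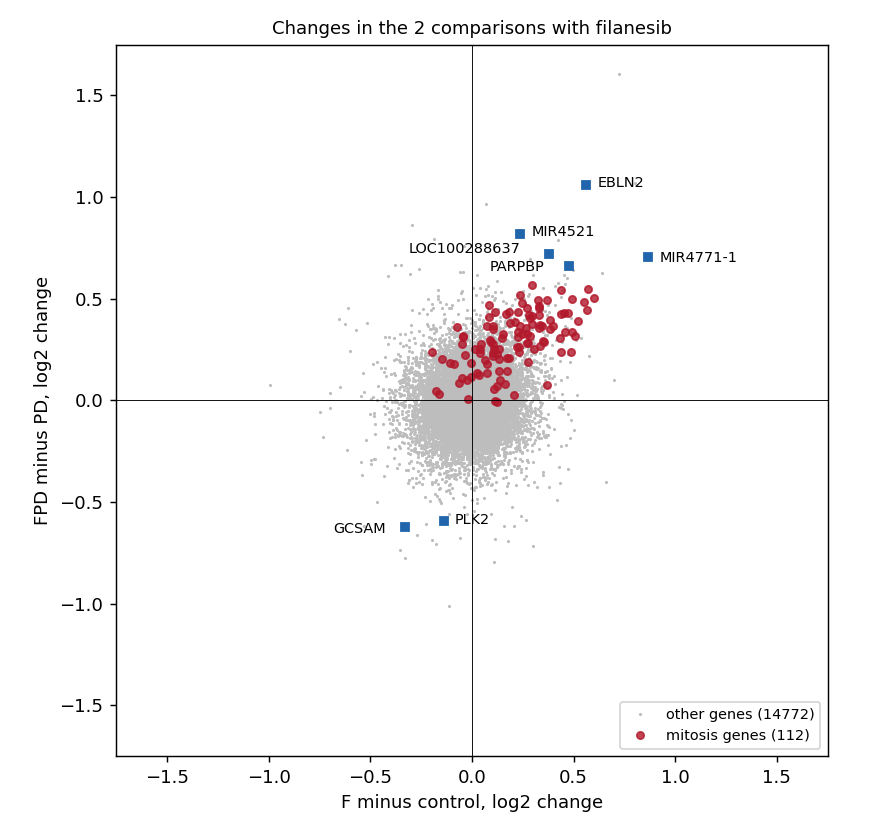
Change in F against control (F minus control, horizontal axis) and on adding filanesib to pomalidomide plus dexamethasone (FPD minus PD, vertical axis), both log2, for 14884 genes. The treatment label of F also lists dexamethasone, which control lacked. Grey points are other genes, red points the 112 mitosis genes, and blue squares the 5 genes that rose with GCSAM and PLK2. Most red points lie right of and above 0, and MIR4771-1 lies farthest right of the squares at 0.87.

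The departure from additivity, (FPD minus PD) minus (F minus control), was tested for every gene. If F carried the dexamethasone of its label, the subtracted term includes an effect of that drug, and the departure is not one of filanesib alone. With limma 0 genes passed, and the smallest adjusted p was 0.888. An unadjusted p under 0.05 was reached by 833 of 14884 genes, where 744.2 would be expected with no differences. The median departure was 0.11 over the mitosis genes and 0.012 over all genes. An unadjusted p under 0.05 was reached by 9 of the 112, beside the 833 of all 14884. The extremes were ZNF491, with 0.63 in FPD against PD and -0.04 in F against control, and at the other end TCEAL2, with -0.35 and 0.35. GH1, KRTAP10-12 and ZNF70 were also among the 4 highest, and ZNF844, NEUROD2 and SEMG1 among the 4 lowest. The test does not show that the changes were equal, since its intervals are wider than those of either comparison.

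Averaging the 2 comparisons, which sets 6 arrays with filanesib against 6 without, gave more calls. By limma 57 genes rose (0.383%) and 7 fell (0.047%), and these carried the same sign in both comparisons, which their choice by the average largely fixes. The genes that rose included 29 of the 112 mitosis genes. KIF18A rose by 0.50, CCNB2 by 0.45 and NEK2 by 0.52 (adjusted p = 0.00265 for each), HMMR by 0.55 (adjusted p = 0.00918), CCNB1 by 0.51 (adjusted p = 0.0104), CDC20 by 0.38 (adjusted p = 0.0138) and PLK1 by 0.41 (adjusted p = 0.0307). KIF11 differed by 0.28 and did not pass (adjusted p = 0.132). By list, 7 kinesins, 7 cyclins and kinases, 5 kinetochore genes, 8 spindle genes and 2 chromosome segregation genes rose, and 0 of 24 DNA replication genes. The 28 outside the lists included PRR11 (0.41), the resolvase subunit EME1 (0.49), the formin DIAPH3 (0.47), KNSTRN, a kinetochore protein (0.39), IQGAP3 (0.38), CIP2A (0.42) and the DNA repair gene XRCC4 (0.51). They also held 5 microRNA loci, among them MIR4441 with the largest rise of the 57 (1.16). EBLN2 (0.81), SCARNA17 (0.49) and SNHG16 (0.34) were among the 28 as well. The genes that fell were GCSAM (-0.48), KRT37 (-0.54), PLK2 (-0.36), GAS6-DT (-0.46), ZBTB11-AS1 (-0.30), MIR4731 (-0.58) and MIR320C1 (-0.55). This average also carries any dexamethasone given to the F group. Leaving out single arrays gave 21 to 59 genes that rose, and fewer than 38 without control array 1 (21), F array 2 (24), F array 3 (26), PD array 2 (28), PD array 3 (23), FPD array 1 (31), FPD array 2 (33) or FPD array 3 (23).

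The promoter letters shown at the start were searched in the RefSeq windows of 250 bases before to 50 after the start of each gene, on both strands. TTTGAA or TTCAAA occurred in 11.8% of 10749 promoters of genes tested, CCAAT or ATTGG in 36.0% and both in 4.86%. Among the 95 mitosis genes with a promoter in the table the shares were 53.7%, 67.4% and 37.9%. Among the 14 kinesins they were 64.3%, 78.6% and 57.1%. DNA replication genes held CCAAT about as often, in 66.7% of 21, and TTTGAA in 4.76%. Matches of the 2 motifs can share letters at their edges, which none in the sequences shown do.

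The motif was also counted for genes picked by their values. Of the 12 ranked genes higher in FPD, 9 had a promoter in the table and 5 of these held TTTGAA (PARPBP, PRC1, KIF18A, GPSM2 and ARHGAP11B). Of the 12 lower, 11 had one and 1 held it (GFRA1). Of the 50 highest genes of F against control the share was 57.9% of 38, and of the 50 lowest 6.25% of 32. Mitosis genes holding TTTGAA had a median change in FPD against PD of 0.34 (51 genes) and those without it 0.27 (44 genes). In F against control these medians were 0.27 and 0.13. In FPD against PD, outside the mitosis lists, the medians were 0.013 for 1221 genes with it and 0.0093 for 9433 without. These are descriptions of letters in fixed windows, with no test.

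Rows without a gene symbol were left out of the counts above. In a fit of all 53617 rows, 87 of the 37519 rows without a symbol passed in FPD against PD (0.232%), 86 of them higher in FPD, and their part in the results for named genes was not tested.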

How the data were processed

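Total RNA of MM.1S cells was measured on Affymetrix arrays, 1 per sample. The authors deposited log2 expression values for which the submitters' processing notes name RMA and the Affymetrix Expression Console. RMA brings all arrays to 1 distribution and compresses weak signals, so folds of weakly expressed genes are understated and a change in total RNA per cell would not show. Software versions and genome build are not given in the sources used here. Gene names came from the platform annotation. Where a gene had several rows (779 genes), its row of highest 12-array mean was used, with no filter on level. Group means were fitted to all 12 arrays with limma 3.58.1 (lmFit, eBayes, 8 residual degrees of freedom) in R 4.3.3. A two-sided test was used, with Benjamini-Hochberg adjustment over 14884 genes, and genes with an adjusted p under 0.05 were called. SE is the standard error of a fitted difference, fc the fold change of FPD over PD. The procedure was tested on simulated data. The number of arrays limits the precision, and no scan dates were used.

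The members, the 24 gene lists and the tests were chosen with earlier results of these data known. Named genes were the 12 smallest p-values in each direction (small RNA, LOC, antisense and similar loci left out), all called genes, the 2 highest and 2 lowest of each list, the 4 highest and 4 lowest departures from additivity, and 25 genes by name, of which 21 were measured and 4 (TPX2, CENPE, CENPF and CDKN1A) were not analysed here. Other genes were named after their values were seen. Arrays were not paired by replicate number in the main fit, and whether the numbers pair them is not known. Deviations of same-numbered PD and FPD arrays from their group means correlated by 0.016, 0.020 and -0.058. Over all same-numbered pairs of arrays the correlations ran from -0.26 to 0.16. No 2 arrays held identical values. Alternatives were the 6 compared arrays alone, repeated quantile normalization, a level filter, the mean of a gene's rows, all named rows, all rows, eBayes with trend and robust, the replicate block, and leaving out each array.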

Additional observations from a re-analysis of the deposited data

Results flagged for a closer look

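A signal was seen in rows that carry no gene symbol in the platform annotation and that enter no comparison of the report. When all 53617 rows were fitted with limma, 87 of the 37519 rows without a symbol passed in FPD against PD, and 86 of these were higher in FPD. Their median change was 1.44 (from -0.57 to 3.15), and their median level was 5.36 in PD and 6.58 in FPD. The mean level of the 87 rows was 5.15 to 5.35 on the PD arrays and 6.71 to 6.78 on the FPD arrays, a choice of rows that fixes this difference. The control and F arrays entered that choice through the estimate of spread alone. On them the mean level of the 87 rows was 5.58 to 6.08 in control and 6.69 to 6.79 in F. In F against control 83 of the 87 were positive, with a median of 0.83. Of the 87, 55 lay among the 3575 rows that precede the first named row of the table (1.54% of that block called), where the median change was 0.15, against -0.0145 over the other rows without a symbol. What these rows measure is not known here, and the cause was not tested.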

How the results depend on the processing

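The median change of the mitosis genes in FPD against PD stayed between 0.25 and 0.32 under every alternative run, within the spread between arrays (0.0553) of its value of 0.30, and the departure from additivity gave 0 calls under each. Counts of single genes moved. Genes higher in FPD against PD, 5 in the report, were 8 with the compared arrays alone and 9 after repeated quantile normalization. The 8 held 4 of the 5, without MIR4771-1, and 4 further microRNA loci. Genes higher were 19 above the median level, 0 with the mean of a gene's rows, 28 with trend and robust, and 0 to 11 without single arrays. The fit of all rows counts rows: 93 were higher, 86 of them without a symbol, and 6 genes were called. Genes lower, 0 in the report, were 1 after quantile normalization, 1 above the median level, 3 with trend and robust, and 0 to 4 without single arrays. Over all rows 1 row was lower, and it had no symbol. Of the 5 genes, 5 were called again with trend and robust, beside 14 mitosis genes, and 3 above the median level, beside 9 mitosis genes, where EBLN2 and MIR4771-1 had been filtered out. The replicate block gave 0 genes higher and 0 lower in FPD against PD, and 0 called in F against control. It gave 54 higher and 6 lower in the average filanesib change. Whether the numbers pair the arrays is not known. Over all rows the average change gave 212 rows higher, 178 of them without a symbol, and 4 lower. Without single arrays it gave 21 to 59 genes higher and 1 to 7 lower. F against control, 1 gene in the report, gave 0 genes above the median level, 4 with trend and robust, and 0 to 2 without single arrays. It gave 2 rows over all named rows and 32 rows over all rows, 30 of them without a symbol. The sign turned for genes near 0: IKZF1 was -0.025 and BCL2 -0.043 after quantile normalization, and BMF -0.18 with the mean of its rows. Without single arrays IKZF1 ranged from -0.016 to 0.11, BMF from -0.014 to 0.17, BAX from -0.082 to 0.027, BCL2 from -0.072 to 0.15 and CRBN from -0.055 to 0.044. Apart from fewer rows or arrays entering some of these fits, the cause was not tested. No measure of detection was used, so for low signals such as those of MIR4771-1 the level above background is not known.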
